A study of Mus musculus with 8 samples.

Results

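Immediate early genes are genes whose transcription starts within minutes of a signal without new protein synthesis. The 10 described here are those outside the Egr and AP-1 families that were listed by name: Ier2, Ier3, Ier5, Srf, Atf3, Klf6, Klf10, Btg2, Zfp36 and Zfp36l1. All 10 were found by symbol among the 52636 gene identifiers of the count table, and all 10 were among the 18321 genes that passed the filter on low counts. The rule that lists them uses no measured value, although the list was drawn up with earlier results of these data known.

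ERK, the last kinase of a MAP kinase cascade, phosphorylates transcription factors already present in the cell. Among them are the ternary complex factors, ETS proteins that sit with the serum response factor SRF on CArG boxes of target promoters. SRF therefore acts before the genes it targets and is also a target gene itself. The products fall into 2 kinds. Ier2, Ier5, Atf3, Klf6, Klf10 and Srf encode proteins that act in the nucleus on transcription, while Zfp36, Zfp36l1 and Btg2 encode proteins that shorten the life of mRNA by bringing in the CCR4-NOT deadenylase, and so limit how long a response lasts. Ier3 encodes a regulator of cell survival. In the epiblast, the pluripotent layer that gives rise to the body, ERK is activated by FGF signals.

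The study measured RNA in mouse epiblast at embryonic day 5.5 to map the transcriptional response to ERK. The labels give all embryos the genotype Sox2Cre;CRAFR26, in which Sox2Cre is active in the epiblast and a construct, cRAFR26, allows ERK to be induced by 4-hydroxytamoxifen (4OHT). The line was made by injecting embryonic stem cell clones into morulae, and the labels name clone 4 and clone 8. Embryos of each clone spent 4 h in culture with 4OHT at 250 nM, or with its solvent, ethanol, as the vehicle. The epiblast was then freed of its extraembryonic layers by dissection. The titles and time labels of the vehicle libraries read 0 h, although their treatment label reads vehicle for 4 h. If they were taken without culture, every comparison also holds 4 h of culture. There were 2 libraries in each of the 4 groups, each made with 7 ng of the RNA of 10 pooled epiblasts. No group is labelled as lacking the construct, so effects of 4OHT itself and of the construct cannot be told apart. The labels do not say whether replicate pools came from separate litters, and p-values then measure only the spread between these pools.

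The vehicle libraries held 33.3 to 38.0 M counts (M, mega) and the 4OHT libraries 56.4 to 72.5 M, without overlap. Values are given as CPM, counts per 1 M of the scaled library total, and as FPKM, CPM per kilobase of exon. A gene counts as called where edgeR's quasi-likelihood test gave a p-value, adjusted by Benjamini-Hochberg over all 18321 genes, under 0.05. The 10 epiblast markers were all detected in every library and summed to 5116 to 6295 CPM. Other tissues were present too. The 12 extraembryonic ectoderm markers summed to 241 to 288 CPM in vehicle clone 8 and to 624 to 894 CPM in the other 6 libraries. The 16 visceral endoderm markers summed to 601 to 960 CPM (vehicle) and 2705 to 3071 CPM (4OHT) in clone 4, and to 1914 to 1949 CPM (vehicle) and 555 to 1385 CPM (4OHT) in clone 8. No gene of these 3 lists was at 0 in any library. The 10 markers of maternal tissue and blood summed to 13.2 to 21.7 CPM. Ptprc, Lyz2, Hba-a1, Hbb-bt, Hand2, Prl8a2 and Col3a1 were at 0 in some libraries. In clone 8 the sum was 13.2 to 16.9 CPM with vehicle and 17.8 to 18.2 CPM with 4OHT. Of the 7 tested, 2 were called higher with 4OHT in clone 8, Col1a1 and Col3a1, where 8.00% of all genes were. None was called in clone 4. Mitochondrial genes took 1.19 to 1.35% of the counts in the 4OHT libraries of clone 8 and 0.205 to 0.619% in the others. Esr1, the estrogen receptor gene, was the 1 gene called over both clones, at 5.92 to 6.75 CPM with 4OHT and 0.187 to 0.723 CPM with vehicle. It was higher in all 4 4OHT libraries than in all 4 vehicle libraries. The sequence of the construct was not used here. Whether the Esr1 reads come from it, and whether the vehicle embryos carried it as labelled, was not tested. If they did not, each difference between 4OHT and vehicle below is also one between embryos with and without the construct.

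Per kilobase of exon, merged over the annotated transcripts of each gene, the 10 genes covered a wide range of levels. Ier2 was highest, with a mean of 112 FPKM and a range over the 8 libraries of 84.5 to 155 FPKM that overlapped with none of the others. Klf6 (mean 24.97 FPKM) and Klf10 (19.5 FPKM) followed. Btg2 had a mean of 12.6 FPKM, Zfp36 8.97 FPKM and Zfp36l1 8.26 FPKM. Zfp36 was above Zfp36l1 in 5 of 8 libraries. The exonic length used for Zfp36, 3470 bases in 1 merged exon of 2 transcripts, spans the whole gene. A shorter transcript would give Zfp36 a higher FPKM, so its place beside Btg2 is not settled. The ranges of all neighbours from Klf6 down to Ier3 in this order overlapped. Atf3 and Srf, at means of 5.48 and 5.46 FPKM, could not be ordered, since Atf3 was the higher in 3 of 8 libraries. Srf and Ier3 could not be ordered either, since Srf was the higher in 3 of 8 libraries. Ier3 (4.62 FPKM) was above Ier5 in all 8 libraries, and Ier5, with a mean of 1.42 FPKM and 101 to 378 counts, was lowest.

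Over both clones together, with clone as a term, none of the 10 genes was called between 4OHT and vehicle. Among all genes the call rate was 0.00546%. At an unadjusted p under 0.05 there were 3, Ier2, Zfp36 and Klf10, beside 3088 of all 18321 genes. DESeq2 called 1 of the 10, Ier2, beside 1024 of all genes. The log2 fold changes were 0.49 (SE 0.13) for Ier2, 0.62 (SE 0.25) for Zfp36 and 0.64 (SE 0.25) for Klf10. The median over the 10 genes was 0.08, with 6 higher and 4 lower, and that over all tested genes was 0.04.

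Within clone 4, again none of the 10 was called, by edgeR or by DESeq2, and none had an unadjusted p under 0.05. The call rate over all genes was 0.0382%, while DESeq2 called 466 genes and 1814 had an unadjusted p under 0.05. The largest of the log2 fold changes was that of Atf3, -0.89 (SE 0.64), and the others lay between -0.31 and 0.29. Within clone 8, 3 of the 10 were called, in a comparison that called 16.6% of all genes. Ier2 and Zfp36 rose, where 8.00% of all genes were called higher, and Srf fell, where 8.60% were called lower. Scaled by library totals alone, the calls over all genes shifted from 1465 higher and 1576 lower to 2102 and 1074, and the 3 genes kept their calls. The median log2 fold change of the 10 genes was -0.02 in clone 4 and 0.28 in clone 8, beside -0.00 and 0.07 over all genes. The plot of fold changes by clone shows all 10.

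**Figure D1:**
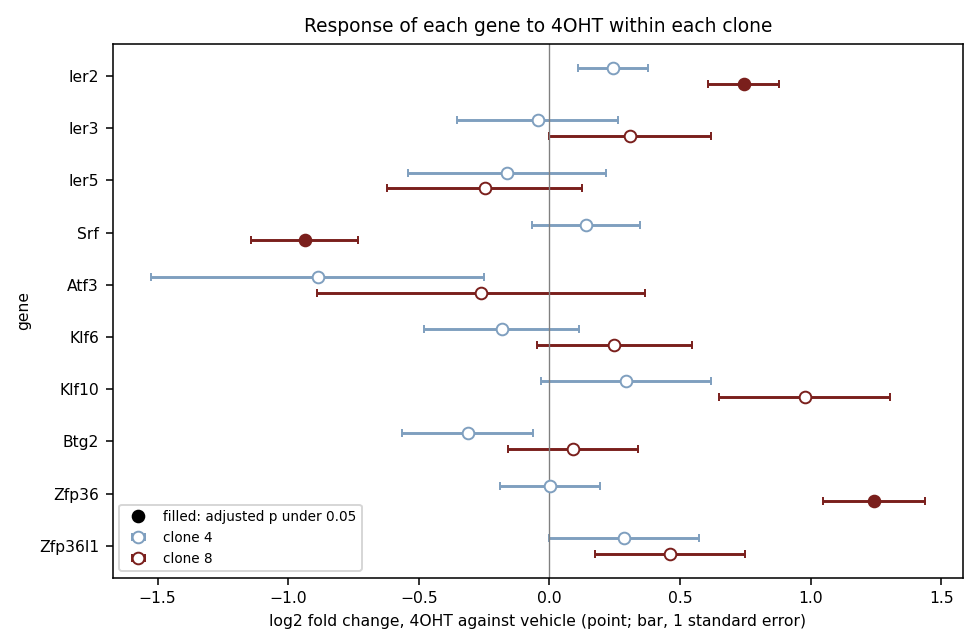
Log2 fold change between 4OHT and vehicle (x axis) of each of the 10 genes (y axis) in clone 4 and clone 8; points are estimates, bars 1 standard error, and filled points passed an adjusted p of 0.05. Ier2 and Zfp36 lie above 0 and Srf below 0 as filled points in clone 8, and every point of clone 4 is open.

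Without the statistics of a fit, the separation of libraries gave a like picture. In clone 4, both 4OHT libraries lay above both vehicle libraries for Ier2 and Klf10, 2 of 10 genes against 23.7% of all genes, and below them for Atf3 alone, against 23.8%. In clone 8 both lay above for Zfp36, Ier2, Zfp36l1 and Klf10, 4 of 10 against 31.7%, and below for Srf alone, against 28.3%. These counts are near the shares over all genes. Only for Ier2 among the 10 did all 4 4OHT libraries lie above all 4 vehicle libraries, which held for 3.42% of all genes.

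**Figure D2:**
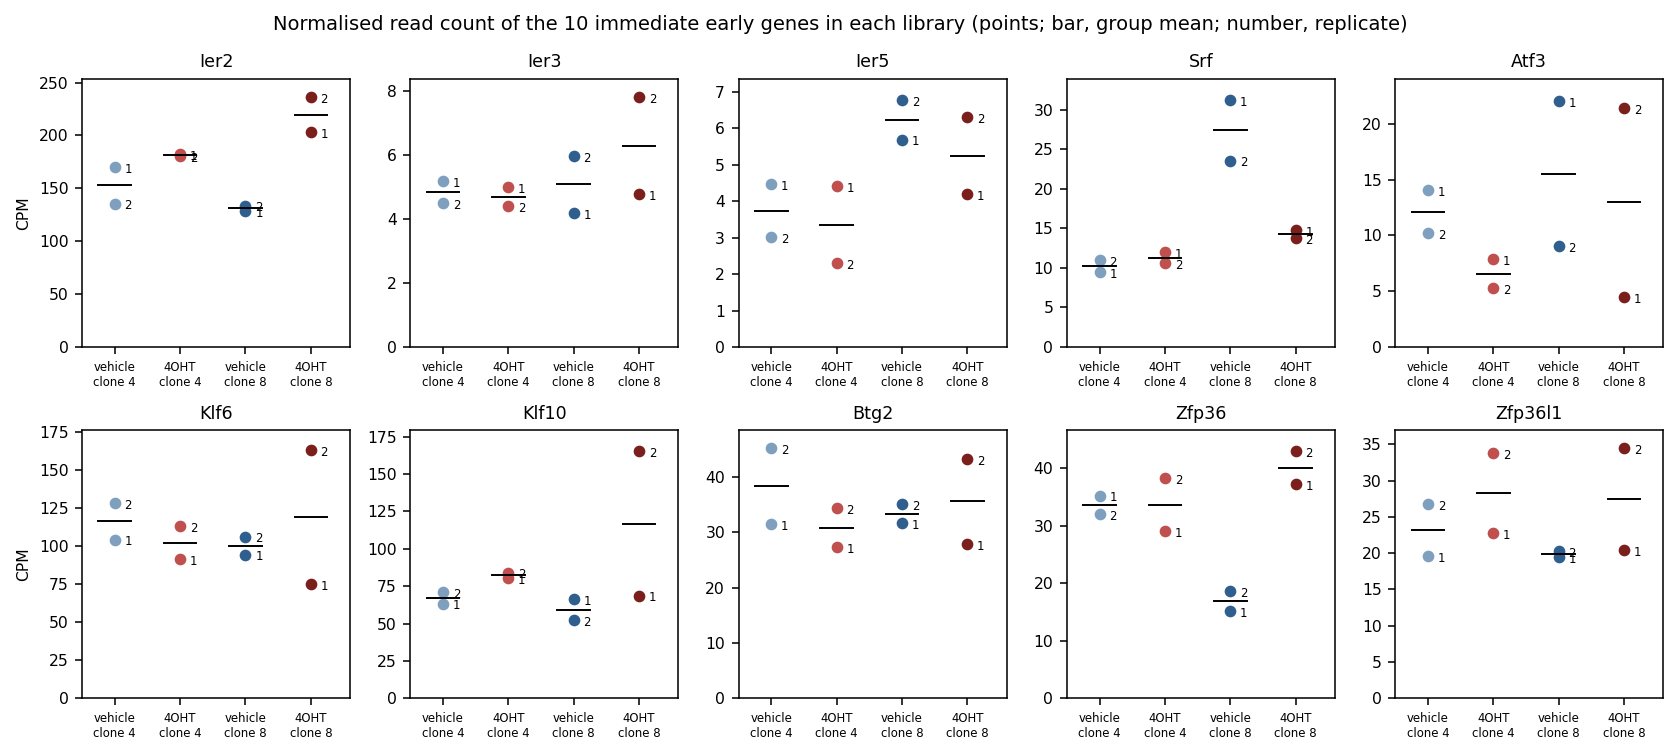
Normalised read count (CPM, y axis, from 0) of the 10 genes in the 8 libraries by group (x axis); points are libraries, numbered by replicate, and bars are group means. The 4OHT libraries of Ier2 all lie above 180 CPM and its vehicle libraries at or below 170.3 CPM, Zfp36 is lowest and Srf highest in the vehicle libraries of clone 8, and replicate 2 of 4OHT clone 8 stands high in several panels.

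Ier2 (ENSMUSG00000053560) is a gene of 1 exon at chr8:84661331-84662852 on the minus strand of mm10, and encodes a small nuclear protein induced by growth factors. In clone 4 it stood at 170.3 and 136 CPM with vehicle and at 182 and 180.1 CPM with 4OHT. In clone 8 it stood at 129 and 134 CPM with vehicle and at 203 and 236 CPM with 4OHT. The groups were apart in both clones, and vehicle replicate 1 of clone 4 came closest to the 4OHT libraries. The rise in clone 8 was 1.67-fold (log2 0.74, SE 0.14, adjusted p = 0.0121), and the difference in clone 4, 0.24 on the log2 scale (SE 0.13), was not called (adjusted p = 0.619). The responses of the clones differed by 0.50 on the log2 scale (SE 0.19, adjusted p = 0.168), which did not pass the threshold. Without vehicle replicate 1 of clone 8 the call in clone 8 was lost (adjusted p = 0.107), as it was when clone 8 was fitted alone (adjusted p = 0.0588).

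Ier5 (ENSMUSG00000056708, 1 exon, chr1:155096361-155099636, minus strand), whose product activates the heat shock factor HSF1, was the lowest of the 10 per length. It stood at 4.47 and 3.01 CPM (vehicle) and 4.41 and 2.29 CPM (4OHT) in clone 4, and at 5.68 and 6.78 CPM (vehicle) and 4.19 and 6.30 CPM (4OHT) in clone 8. The treatment groups overlapped in both clones. Of 8 heat shock genes, Hsph1 rose in clone 8 (log2 0.56, SE 0.16), where 16.6% of all genes were called. Hsp90aa1 (-0.67, SE 0.12) and Hspe1 (-0.90, SE 0.17) fell there, while none was called in clone 4. Hsph1 and Hspe1 were also among the 3 heat shock genes called between clones with vehicle, and none was with 4OHT. Ier3 (ENSMUSG00000003541, chr17:35821684-35822923, plus strand) stood at 5.19 and 4.49 CPM (vehicle) and 4.98 and 4.40 CPM (4OHT) in clone 4, and at 4.18 and 5.96 CPM (vehicle) and 4.76 and 7.79 CPM (4OHT) in clone 8. Its groups overlapped as well. The log2 fold changes in clone 8 were -0.25 (SE 0.37, adjusted p = 0.686) for Ier5 and 0.31 (SE 0.31, adjusted p = 0.526) for Ier3.

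Srf (ENSMUSG00000015605, chr17:46548329-46556175, minus strand, 7 merged exons) encodes the factor that binds CArG boxes. It is shown with Zfp36 because both genes were called in clone 8, in opposite directions, and both carry a CArG box before their start. The 250 bases before the RefSeq start were searched in 8 of the 10 genes (not Ier2 or Klf10) on both strands. A CArG box was found in Zfp36, 58 bases before the start, and 2 times in Srf, 82 and 62 bases before it. It was found in none of the other 6, and in 482 of 32851 promoters (1.47%). The stretches are given 5′ to 3′ on the strand of the gene in the build GRCm38.p6, with the CArG boxes in capitals.
Zfp36 (chr7:28379267-28379296, minus strand): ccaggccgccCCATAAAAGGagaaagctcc
Srf (chr17:46556205-46556254, minus strand): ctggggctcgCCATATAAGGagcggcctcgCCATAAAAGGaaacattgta
The stretch of Zfp36 lies within the 1 merged exon of its 2 GENCODE M21 transcripts, and that of Srf lies outside its annotated exons. The ETS motif CCGGAAG was also found in Zfp36, 92 bases before the start, and in Srf, 122 bases before it, as in 6.91% of promoters. The CRE motif TGACGTCA was found in Btg2 (1.55% of promoters), the AP-1 motif TGANTCA in Zfp36l1 (6.75%), and TATAAA in Zfp36l1 and Srf (12.4%). The EGR motif GCGTGGGCG was in none of the 8 (0.536% of promoters). No matches of different motifs overlapped.

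Srf stood at 9.47 and 11.01 CPM with vehicle and at 11.98 and 10.6 CPM with 4OHT in clone 4. In clone 8 it stood at 31.2 and 23.6 CPM with vehicle and at 14.8 and 13.8 CPM with 4OHT. The vehicle libraries of clone 8 were thus apart from the other 6, which spanned 9.47 to 14.8 CPM. Srf fell 1.91-fold in clone 8 (log2 -0.94, SE 0.20, adjusted p = 0.0192), and its difference in clone 4 was 0.14 (SE 0.21, adjusted p = 0.889). The difference of the responses, -1.08 (SE 0.29), missed the threshold (adjusted p = 0.0794). The fall was not called without vehicle replicate 1 of clone 8 (adjusted p = 0.141), without 4OHT replicate 2 of clone 8 (0.0520), or with clone 8 fitted alone (0.0706).

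Zfp36 (ENSMUSG00000044786, chr7:28376784-28380253, minus strand) encodes tristetraprolin, which binds AU-rich elements of mRNAs such as those of cytokines and immediate early genes. It stood at 35.3 and 32.0 CPM with vehicle and at 29.1 and 38.3 CPM with 4OHT in clone 4, where the 4OHT libraries lay on both sides of the vehicle libraries. In clone 8 it stood at 15.2 and 18.7 CPM with vehicle and at 37.3 and 43.0 CPM with 4OHT, without overlap. Zfp36 rose 2.36-fold in clone 8 (log2 1.24, SE 0.20, adjusted p = 0.00929), the largest log2 fold change of the 10 genes there. In clone 4 the difference was 0.00376 (SE 0.19, adjusted p = 0.999). Zfp36 was the only one of the 10 whose response was called different between the clones (log2 1.24, SE 0.27, adjusted p = 0.0491), a call made for 2.83% of all genes. When each library was left out in turn, 7 of the 8 fits did not call this difference (adjusted p from 0.0317 to 0.183), and the fit that kept it was without 4OHT replicate 1 of clone 8. With RLE size factors it was lost as well (adjusted p = 0.0515). The call within clone 8 was lost without vehicle replicate 1 of clone 8 (adjusted p = 0.0932) and with clone 8 fitted alone (0.0579).

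For both genes the clones differed with vehicle, where a gene was called between clones in 8.37% of cases. This contrast, and the one with 4OHT, were added after the values had been seen, and they use the same libraries as the responses. With vehicle, Zfp36 was 1.98-fold lower in clone 8 than in clone 4 (log2 -0.99, SE 0.19, adjusted p = 0.0255) and Srf 2.68-fold higher (log2 1.42, SE 0.21, adjusted p = 0.0162). No other of the 10 genes was called there (adjusted p from 0.265 to 0.928). Both calls were lost in 3 of the 8 fits that left out a library, without vehicle replicate 1 or 2 of clone 4 or vehicle replicate 1 of clone 8, with adjusted p up to 0.219 for Zfp36 and 0.168 for Srf. With 4OHT, none of the 10 was called between clones by edgeR or by DESeq2, and none had an unadjusted p under 0.05. Over all genes the call rate was 0.202%, while DESeq2 called 1005 genes and 3296 had an unadjusted p under 0.05. The differences there were 0.25 (SE 0.19, adjusted p = 0.534) for Zfp36 and 0.34 (SE 0.20, adjusted p = 0.416) for Srf.

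**Figure D3:**
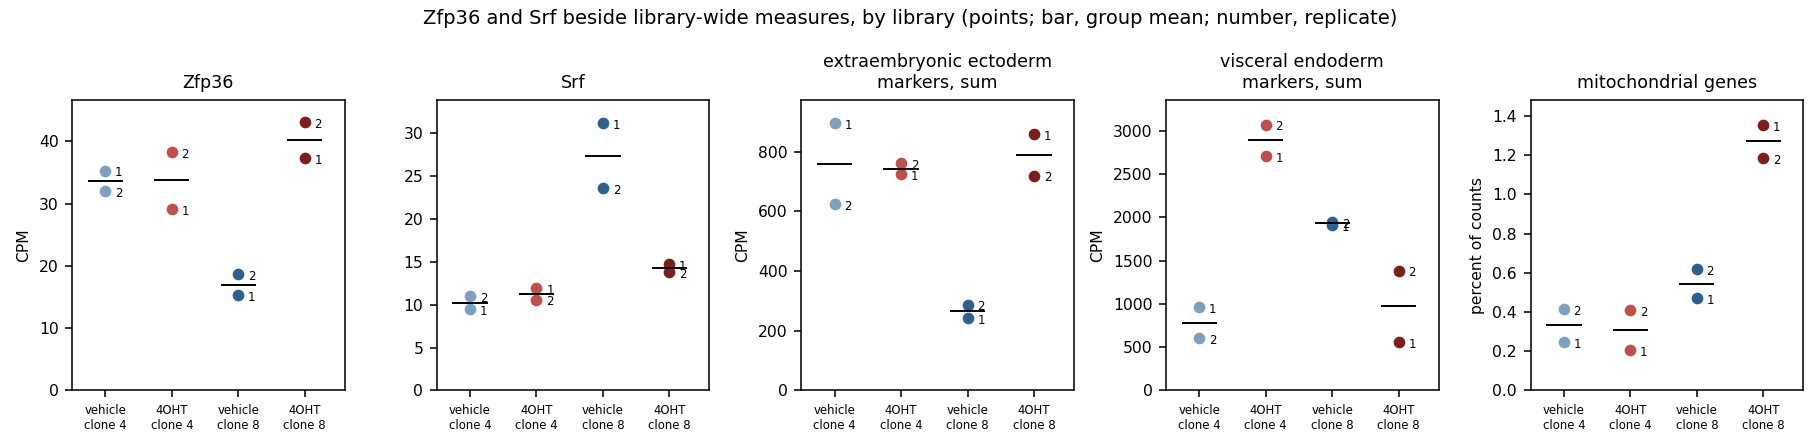
Zfp36 and Srf (CPM), the summed level of 12 extraembryonic ectoderm markers and of 16 visceral endoderm markers (CPM), and the mitochondrial share of counts (percent), by group (x axis); points are libraries, numbered by replicate, and bars are group means. In the vehicle libraries of clone 8, Zfp36 and the extraembryonic ectoderm sum are lowest and Srf is highest; the mitochondrial share is highest in 4OHT clone 8.

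The same 2 libraries that were low in Zfp36 and high in Srf were low in extraembryonic ectoderm markers. In clone 8, 9 of the 12 extraembryonic ectoderm markers were called higher with 4OHT (list median 1.70). There, 5 of the 16 visceral endoderm markers (median -0.96) and 4 of 10 epiblast markers, Pou5f1 among them, were called lower. Of all genes, 8.00% were called higher in that comparison and 8.60% lower. Elf5, a defining gene of extraembryonic ectoderm, stood at 16.4 and 24.3 CPM in vehicle clone 8 and at 55.7 to 95.3 CPM elsewhere. Amn, a visceral endoderm gene, stood at 216 CPM in both vehicle libraries of clone 8 and at 54.4 and 128 CPM with 4OHT. In clone 4, all 16 visceral endoderm markers were higher with 4OHT (median 1.79, none called), while Zfp36 and Srf there differed by 0.00376 and 0.14. In these bulk samples, fewer cells of a type and less RNA per cell cannot be told apart. The part of these markers, of the mitochondrial share and of the depth in the calls of Ier2, Zfp36 and Srf was not tested, beyond thinning all libraries to 1 depth, under which all 3 calls were kept.

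Srf acts with cofactors, the ternary complex factors and the actin-regulated MRTFs. None of 5 cofactor genes was called in clone 8, where all 5 were higher (median 0.58), or in clone 4 (median 0.21). Of 13 tested cytoskeletal targets of SRF, 2 rose in clone 8 and 1 fell, with a median of 0.03 (0.02 in clone 4). Vcl, which encodes the adhesion protein vinculin, rose (log2 1.83, SE 0.30, adjusted p = 0.0101). It stood at 8.999 and 18.8 CPM in vehicle clone 8 and at 40.2 to 55.5 CPM in the other 6 libraries, so that it too was low in the vehicle libraries of clone 8. Cald1, encoding caldesmon, rose (0.61, SE 0.17) and Actb, encoding β-actin, fell (-0.36, SE 0.09). With vehicle, Vcl and Cald1 were called lower in clone 8 than in clone 4. With 4OHT, none of the 13 was called between clones. Of all genes, 16.6% were called between 4OHT and vehicle in clone 8.

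Atf3 (ENSMUSG00000026628, chr1:191170296-191218039, minus strand) encodes a bZIP factor induced by many stresses and best known as a repressor. Its standard errors were the largest of the 10. It stood at 14.1 and 10.2 CPM (vehicle) and at 7.87 and 5.28 CPM (4OHT) in clone 4, where the groups were apart. In clone 8 it stood at 22.0 and 9.06 CPM (vehicle) and at 4.51 and 21.4 CPM (4OHT), where 1 library of each group was high. The log2 fold changes were -0.89 (SE 0.64, adjusted p = 0.741) in clone 4 and -0.26 (SE 0.63, adjusted p = 0.806) in clone 8. In clone 8 the value ran from -1.79 to 0.51 as single libraries were left out. The integrated stress response is the pathway through which ATF4 induces Atf3. None of 8 genes of it was called in either clone (medians -0.34 in clone 4 and -0.30 in clone 8). Of all genes, 0.0382% were called in clone 4 and 16.6% in clone 8. The 8 genes summed to 1899 and 1574 CPM (vehicle) and 1625 and 1173 CPM (4OHT) in clone 4. In clone 8 they summed to 2334 and 1609 CPM (vehicle) and 1531 and 2059 CPM (4OHT), highest in the libraries high in Atf3. A link between the sum and Atf3 was not tested.

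Klf6 and Klf10 encode zinc finger factors of the Krüppel-like family, and Klf10 is known as an early target of TGF-β. Klf10 (ENSMUSG00000037465, chr15:38291463-38300706, minus strand) stood at 63.3 and 71.1 CPM (vehicle) and at 80.7 and 84.2 CPM (4OHT) in clone 4. In clone 8 it stood at 66.5 and 52.2 CPM (vehicle) and at 68.7 and 165 CPM (4OHT). The 4OHT libraries lay above the vehicle libraries in both clones, but in clone 8 1 of the 2 did so by little. The difference in clone 8 was 1.97-fold (log2 0.98, SE 0.33) and was not called (adjusted p = 0.0696). It was called by DESeq2 (0.96, adjusted p = 0.00823), with library totals (1.10, adjusted p = 0.0427), with no expression filter or with at least 10 counts in every library, and without 4OHT replicate 1 of clone 8 (1.48, adjusted p = 0.00443). Without 4OHT replicate 2 of clone 8, the library at 165 CPM, it was 0.21 (adjusted p = 0.445). Klf6 (ENSMUSG00000000078, chr13:5861482-5870394, plus strand) stood at 104 and 128 CPM (vehicle) and 91.5 and 113 CPM (4OHT) in clone 4. In clone 8 it stood at 94.5 and 106 CPM (vehicle) and 75.2 and 163 CPM (4OHT). The 4OHT libraries of clone 8 lay on both sides of the vehicle libraries, and the fold change there, 0.25 (SE 0.30, adjusted p = 0.603), was called only when 4OHT replicate 1 was left out (0.70, adjusted p = 0.0308).

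Btg2 (ENSMUSG00000020423, chr1:134075170-134079120, minus strand) encodes an antiproliferative protein that binds the deadenylase and is a target of p53. It stood at 31.5 and 45.3 CPM (vehicle) and 27.4 and 34.3 CPM (4OHT) in clone 4, and at 31.6 and 35.2 CPM (vehicle) and 27.9 and 43.2 CPM (4OHT) in clone 8. The groups overlapped in both clones, and the log2 fold changes were -0.31 (SE 0.25, adjusted p = 0.768) and 0.09 (SE 0.25, adjusted p = 0.830). Of 9 tested p53 targets, 3 rose in clone 8, Ccng1 (0.63, SE 0.14), Mdm2 (0.87, SE 0.20) and Pmaip1 (0.80, SE 0.19). That comparison called 16.6% of all genes. With vehicle, the same 3 were called lower in clone 8 than in clone 4 (list median -0.68). With 4OHT, none of the list was called between clones. The median response of that list was 0.43 in clone 8 and -0.29 in clone 4, where none was called.

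Zfp36l1 (ENSMUSG00000021127, chr12:80107754-80113013, minus strand) encodes a relative of tristetraprolin with the same kind of RNA-binding zinc fingers. It stood at 19.7 and 26.8 CPM (vehicle) and 22.8 and 33.8 CPM (4OHT) in clone 4, and at 19.5 and 20.3 CPM (vehicle) and 20.4 and 34.4 CPM (4OHT) in clone 8. The groups overlapped in clone 4 and were apart by a small margin in clone 8, and neither difference was called (0.29, SE 0.29, adjusted p = 0.825, and 0.46, SE 0.29, adjusted p = 0.298). In clone 8 the value was 0.0339 without 4OHT replicate 2 and 0.79 without 4OHT replicate 1, and neither was called. An antisense gene, Gm26669, overlaps 55.9% of its exonic length. Use of strand in the counting is not stated in the sources used here, and Gm26669 held at most 8 counts in any library. Of 8 close relatives of the 10 genes, 3 were higher and 5 lower in clone 8, where 16.6% of all genes were called. Only Zfp36l2 was called, and it rose (log2 1.23, SE 0.27, adjusted p = 0.0197). It stood at 53.1 and 55.2 CPM with vehicle and at 113 and 141 CPM with 4OHT there, and at 45.1 to 81.7 CPM in clone 4. The median of the relatives was -0.12 in clone 8. Of 10 deadenylase subunits, Cnot1, the scaffold (0.90, SE 0.17), and Cnot3 (0.75, SE 0.18) rose in clone 8. Cnot6, a catalytic subunit, fell there (-0.75, SE 0.17), in a comparison that called 16.6% of all genes. The same 3 subunits were called between clones with vehicle, 1 higher and 2 lower in clone 8, and none was with 4OHT. That list had a median of 0.23 in clone 8 and -0.01 in clone 4, where none was called.

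The other immediate early genes, among them the Egr and AP-1 families, gave more calls in clone 8. Of 39 tested genes of that list, 17 rose and 3 fell in clone 8, with a median of 0.88. Those with the lowest p were Fosl2 (log2 2.49, SE 0.28), Nfkbiz (1.31, SE 0.17), Egr1 (5.25, SE 0.73), Fosl1 (2.07, SE 0.30), Myc (0.88, SE 0.17) and Fos (2.61, SE 0.52). The largest log2 fold change among the 10 was the 1.24 of Zfp36. In clone 4 none of the 39 was called, with a median of 0.13. Egr1 there stood at 8.05 and 18.2 CPM with vehicle and at 55.3 and 75.9 CPM with 4OHT, without overlap (log2 2.32, SE 0.64, adjusted p = 0.234). With vehicle, 8 of the 39 were called between clones, 3 higher and 5 lower in clone 8, where 8.37% of all genes were called. Fosl2, Nfkbiz, Fosl1 and Myc were among these 8. None of the 39 was called between clones with 4OHT. The 40 listed genes summed to 995 to 1205 CPM in vehicle clone 8 and to 1485 to 1488 CPM in vehicle clone 4. The difference between the lists in clone 8, 20 of 39 genes called beside 3 of 10 and 16.6% of all genes, was not tested. The plot of fold changes by list shows the responses to 4OHT.

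**Figure D4:**
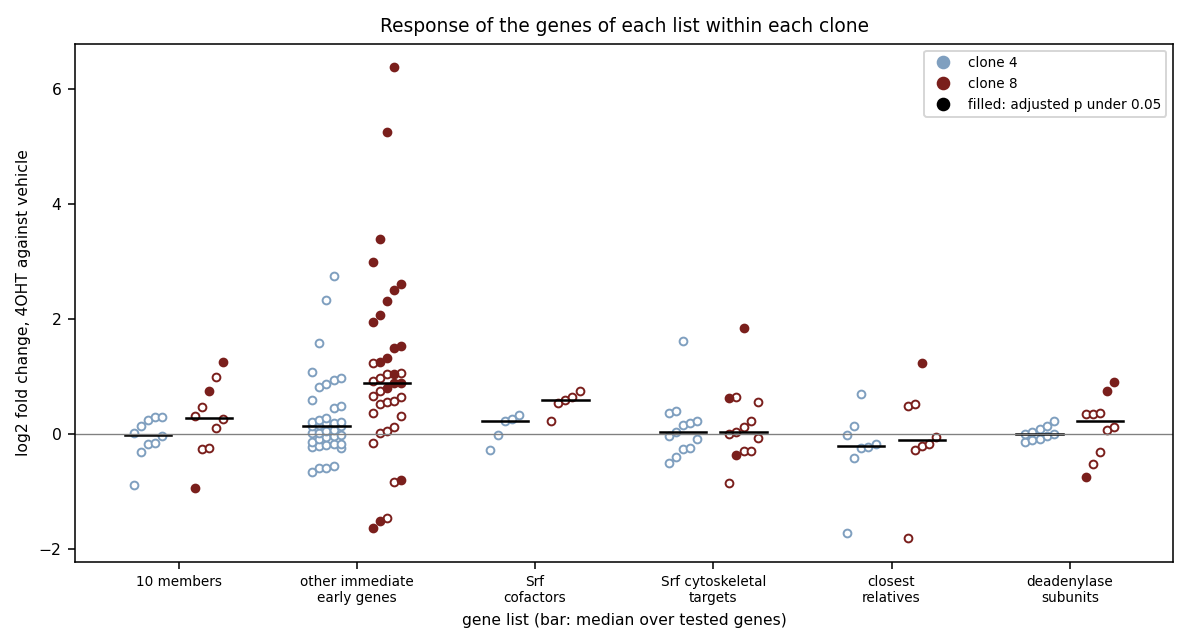
Log2 fold change between 4OHT and vehicle (y axis) of the tested genes of 6 lists (x axis) in clone 4 and clone 8; points are genes, filled where the adjusted p was under 0.05, and bars are list medians. In clone 8 the bar of the 10 genes lies at 0.28 and that of the other immediate early genes at 0.88.

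A single library stood out across the 10 genes. Replicate 2 of 4OHT clone 8 held the highest CPM of the 8 libraries for 6 of the 10, Ier2, Ier3, Zfp36, Zfp36l1, Klf6 and Klf10, where it was highest for 15.6% of all genes. It was also highest for Egr1, at 379 CPM beside 74.7 CPM in replicate 1, and for Fos, at 49.4 CPM beside 15.1 CPM. Of the other 4, Atf3 and Srf were highest in vehicle replicate 1 of clone 8, Ier5 in vehicle replicate 2 of clone 8, and Btg2 in vehicle replicate 2 of clone 4. Without this library, Ier2 and Zfp36 were still called in clone 8 and Srf was not.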

How the data were processed

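RNA was sequenced from 8 libraries of mouse epiblast, 2 in each of 4 groups. The deposited table holds whole-number counts by Ensembl identifier, 1 column per library, without normalization. Per the submitters' processing notes, reads were handled with bcl2fastq 2.19.1 and STAR 2.5.3a on mm10. How reads were assigned to genes (program, annotation, strand) is not given in the sources used here. Of the 52636 identifiers, 52403 matched a symbol. Coordinates and exonic lengths were taken from GENCODE M21, and promoters from the RefSeq table of the build GRCm38.p6.

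Counts were tested as deposited with edgeR 4.0.16 in R 4.3.3. Genes were kept by filterByExpr (minimum count 10), scaled by TMM and fitted with glmQLFit at its default in that version. A standard error (SE) is the log2 fold change divided by the square root of F. The comparison over both clones had clone as an additive term. All other contrasts came from 1 fit of the 4 groups, so that the contrasts between clones share libraries with the responses. The procedure was also run on simulated counts, with the same spread for every gene and no difference between clones. That run cannot show how the procedure behaves where clones or single libraries differ.

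All 10 genes are named. From the other lists, Egr1, Fos and the called genes are named, or the 6 with the lowest p where more were called, with Pou5f1, Amn and Elf5 for the markers and Esr1. The genes, the lists and this rule were chosen with earlier results of these data known. The alternatives were other scalings and filters, DESeq2 1.42.0, thinned counts, a replicate block, clones fitted alone, other contrasts, no clone term and leaving out each library. Added after the data were seen were the legacy option of glmQLFit set off and a correction for length and GC content. Results that need an item withheld for evaluation are not reported here.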

Additional observations from a re-analysis of the deposited data

Results flagged for a closer look

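Dixon's test at its 95% critical value was applied to 66 sets, each 1 gene in the 4 vehicle or the 4 4OHT libraries. In 6 of 66 sets 1 library lay far from the other 3, where chance gives about 1 in 20 (3.3 of 66). That chance figure takes the sets as independent and each as 1 population. Each set held both clones, and many genes were examined because they had been called. Of these 6, 3 belong to the 10 genes. Ier2 stood at 170.3 CPM in vehicle replicate 1 of clone 4, Zfp36l1 at 26.8 CPM in vehicle replicate 2 of clone 4 and Klf10 at 165 CPM in 4OHT replicate 2 of clone 8, each above the other 3 libraries of its treatment. In that 4OHT library Egr1 (379 CPM) and Fos (49.4 CPM) were also far above the others, and Elf5 was far below them in 4OHT replicate 1 of clone 8 (61.1 CPM).

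The response to 4OHT was called different between the clones for Zfp36 (log2 difference 1.24, clone 8 minus clone 4). By the same test it was called different for Fos (3.26), Fosl2 (2.48), Nfkbiz (1.91) and Fosl1 (2.66). The same held for the SRF targets Vcl (1.87), Cald1 (1.13) and Actb (-0.58), and for the p53 target Ccng1 (0.93). Of the 16 visceral endoderm markers, 8 were called, Amn (-3.33) among them, all with a negative difference. Of the 12 extraembryonic ectoderm markers, 6 were called, all with a positive difference. Over all genes, 2.83% were called in that comparison.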

How the results depend on the processing

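Over all alternatives, 1040 values of the 10 genes were computed, of which 950 kept their direction and their side of the threshold, 22 lost a call, 18 gained one and 50 changed sign. In clone 8, Ier2, Zfp36 and Srf were called in 9 of 10 settings that kept all libraries of the clone; with clone 8 fitted alone 0 genes and 0 of the 10 were called by edgeR, although 4886 genes had an unadjusted p under 0.05. With each library left out, 0 to 5 of the 10 were called in clone 8 (0 without vehicle replicate 1 of clone 8, 5 without 4OHT replicate 1, with Klf6 and Klf10 added) among 0 to 3218 genes. The cause was not tested. The legacy option that had been set as an alternative is the default of this version and gave no separate value.

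Counts of called genes moved with the setting. Over both clones (1 gene, 0 of the 10) they were 1337 genes and 3 of the 10 (Ier2, Zfp36 and Klf10) with no expression filter, 1024 and 1 with DESeq2, 1063 and 2 (Ier2 and Zfp36) with the mean of the within-clone contrasts, 0 genes with at least 10 counts in every library or with the length and GC correction, and 0 to 1 genes with a library left out. In clone 4 (7 genes) they were 728 with no filter, 78 with at least 10 counts, 466 with DESeq2, 16 with the legacy option off, 14 with thinned counts, 220 with clone 4 fitted alone and 0 to 259 with a library left out. For the difference of the responses (519 genes, Zfp36 alone of the 10) they were 2114 and 3 with no filter (Klf10 and Srf added), 1806 and 2 with DESeq2 (Srf added), and 0 of the 10 with RLE size factors. With a library left out they were 0 to 1205 genes and 0 to 2 of the 10. Between clones with vehicle (1534 genes, 2 of the 10) they were 2901 with no filter, 3066 with DESeq2, and 0 to 2491 genes and 0 to 2 of the 10 with a library left out. Between clones with 4OHT (37 genes, 0 of the 10) they were 19 with library totals, 1414 and 2 (Atf3 and Klf10) with no filter, 150 with at least 10 counts, 1005 with DESeq2, 709 with the legacy option off, 88 with the length and GC correction and 0 to 672 with a library left out. Library totals moved the median log2 fold change of all genes in clone 8 from 0.07 to 0.19.

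Same-numbered replicates did not deviate together over the tested genes (correlations 0.09 in clone 4 and -0.01 in clone 8). With 2 libraries per group this gives 1 value per clone, which cannot decide whether the numbers pair the libraries. With the replicate block, 0 genes were called over both clones (2338 at an unadjusted p under 0.05) and 0 in clone 4 (1814), 2897 genes and 3 of the 10 in clone 8, and 451 genes and 0 of the 10 for the difference of the responses. Under the block Klf6 over both clones was -0.0213 and Zfp36 in clone 4 -0.00813. The block could not be fitted for contrasts between clones.

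Other values near 0 changed sign too. With the length and GC correction Klf6 over both clones was -0.0510, Zfp36 in clone 4 -0.0490 and Ier3 between clones with vehicle -0.19. With thinned counts Zfp36 in clone 4 was -0.0470. With library totals the difference of responses of Ier5 was 0.0146, and Zfp36l1 between clones with 4OHT was 0.0457.

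With a library left out, log2 values over both clones ran from -0.0627 to 0.23 for Ier3, -0.29 to 0.0304 for Btg2 and -0.28 to 0.18 for Klf6. In clone 4 they ran from -0.14 to 0.0641 for Ier3, -0.71 to 0.24 for Ier5, -0.21 to 0.19 for Zfp36 and -0.0288 to 0.54 for Zfp36l1. In clone 8 they ran from -0.0890 to 0.62 for Ier3, -0.57 to 0.0175 for Ier5, -1.79 to 0.51 for Atf3, -0.26 to 0.37 for Btg2 and -0.42 to 0.70 for Klf6, and from 0.0339 to 0.79 for Zfp36l1 and 0.21 to 1.48 for Klf10, which kept their sign. For the difference of the responses they ran from -0.0435 to 0.67 for Ier3, -0.49 to 0.46 for Ier5, -0.90 to 1.39 for Atf3, -0.25 to 0.50 for Zfp36l1, -0.23 to 0.89 for Klf6 and -0.0819 to 1.18 for Klf10. Between clones with vehicle they ran from -0.19 to 0.31 for Ier3, -0.41 to 0.88 for Atf3, -0.42 to 0.11 for Btg2, -0.41 to 0.0386 for Zfp36l1 and -0.35 to 0.0088 for Klf10. With 4OHT they ran from -0.54 to 1.71 for Atf3, -0.14 to 0.49 for Btg2, -0.47 to 0.28 for Zfp36l1, -0.45 to 0.67 for Klf6 and -0.26 to 1.002 for Klf10. Where this left 1 library in a group, that library was assumed to vary like the other groups. Groups of 2 libraries, and counts as low as the 101 of Ier5 in vehicle replicate 2 of clone 4, limit what could be detected.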
